A study of Mus musculus with 6 samples.

Results

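Interferon-stimulated genes are the genes that cells switch on when type I interferon reaches its receptor, and 33 of them were followed here in mouse embryonic fibroblasts (MEFs, connective tissue cells grown from embryos) with and without added p27. The 33 were a fixed list of gene symbols, and all 33 were found by exact symbol among the 24062 symbols of the count table. Of these, 31 had enough counts to be tested, and Mx1 and Rsad2 did not. The cells were C57BL/6 MEFs harvested at day 10. In 3 libraries p27, a cyclin-dependent kinase inhibitor encoded by Cdkn1b, had been supplied by lentivirus (p27OE), and 3 libraries were labelled EV control, a term the labels do not spell out. The promoter that drove p27 and the number of embryos or cultures behind each group are not stated in the labels. GEO's series design text calls the cells non-senescent and the treatment protocol calls them senescent. Sample titles carry the word senescent for p27OE alone and the word control for EV control. The groups are named here by p27OE and EV control alone. Titles of the EV control libraries carry a dataset tag that p27OE titles lack, and any difference in handling that goes with it cannot be told apart from p27.

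Type I interferon binds the receptor pair IFNAR1 and IFNAR2, the kinases JAK1 and TYK2 then phosphorylate STAT2, which joins IRF9 in a complex that binds the interferon-stimulated response element (ISRE) in target promoters. The targets include the sensors that detect viral RNA and DNA, the factors that amplify the signal, and effectors that block viral entry, translation, replication and budding. Fibroblasts both make interferon-beta and respond to it, and embryonic fibroblasts are a standard cell in which this response has been studied.

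The ISRE is the sequence that joins many of these genes, so promoter stretches are shown for 6 of them, 1 from each of the first role groups in which a match was found. The sequences are from RefSeq (GRCm38.p6), read 5′ to 3′ on the strand of the gene, all from before the start site, and capitals mark matches to the ISRE core on either strand. The core was searched as GAAANNGAAA and its reverse complement TTTCNNTTTC. Positions count from the start site as 0. A second match in Ddx60 begins at the last base shown.
Ddx60, chr8:61928009-61928068, plus strand, positions -78 to -19: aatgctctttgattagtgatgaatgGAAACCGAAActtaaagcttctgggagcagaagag
Stat2, chr10:128270251-128270310, plus strand, positions -247 to -188: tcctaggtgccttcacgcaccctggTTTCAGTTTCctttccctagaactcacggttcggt
Isg15, chr4:156200862-156200921, minus strand, positions -103 to -44: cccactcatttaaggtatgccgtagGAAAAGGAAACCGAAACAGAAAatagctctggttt
Ifit1, chr19:34640760-34640819, plus strand, positions -129 to -70: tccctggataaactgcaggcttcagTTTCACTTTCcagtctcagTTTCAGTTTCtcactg
Oas1a, chr5:120907526-120907570, minus strand, positions -45 to -1: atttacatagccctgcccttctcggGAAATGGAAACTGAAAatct
Gbp2, chr3:142620579-142620638, plus strand, positions -84 to -25: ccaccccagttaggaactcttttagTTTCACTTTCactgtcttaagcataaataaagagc

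In Isg15, 3 matches overlapped in a single run, and Ifit1 held 2 separate ones. RefSeq windows from 250 bases before to 50 bases after a start site were matched for 25 of the 33 genes. The ISRE core was found in 12 of these 25 (48%) and in 1079 of the 27025 genes of the whole promoter table (3.99%). The 12 were Bst2, Ddx58, Ddx60, Gbp2, Gbp3, Ifih1, Ifit1, Ifit3, Isg15, Oas1a, Rsad2 and Stat2, with the match after the start site in Ddx58 and Ifih1. The spaced palindrome of the interferon-gamma activated site, TTCNNNGAA, was found in 6 of the 25 (24%) and in 9.55% of all genes, and Irf1, Ifit2, Ifi35 and Isg20 held it without an ISRE core. No entry was matched for Dhx58, Mx1, Mx2, Parp14, Parp9, Rtp4, Usp18 and Zbp1. A match is a run of letters and not a measured binding site.

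The libraries held 39183624 to 61219345 counts. Cdkn1b was at 43.8, 31.5 and 32.3 CPM (counts scaled to a common library size) in EV control 1, 2 and 3 and at 167, 232 and 337 CPM in p27OE 1, 2 and 3, higher in every p27OE library. Its log2 fold change was 2.77 ± 0.29 (SE, with an edgeR adjusted p = 0.028), a call that was held without EV control 1 and lost without any other single library (edgeR adjusted p from 0.0563 to 0.189, log2 fold change from 2.48 to 2.97). Fibroblast markers such as Col1a1 and Pdgfra summed to 59317, 41145 and 43490 CPM in EV control 1, 2 and 3. In p27OE 1, 2 and 3 they summed to 47790, 47349 and 45510 CPM. Markers of lymphoid cells summed to 0.0658 to 0.123 CPM, and 6 of those 9 genes had no count in any library. The labels do not say that libraries of a group came from separate cultures, so every p-value below measures only the spread between these libraries, which may be partly technical.

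The 33 genes did not separate the groups, but they separated single libraries inside each group. Together they summed to 543, 242 and 250.5 CPM in EV control 1, 2 and 3 and to 502, 283 and 253 CPM in p27OE 1, 2 and 3. The library numbered 1 was thus the high one in both groups, and the other 4 lay close together. For 29 of the 31 tested genes, EV control 1 and p27OE 1 were the 2 highest of the 6 libraries, an order held by 16.5% of all 13990 genes tested. The exceptions were Irf1 and Ifit2. The same order was held by 7 of the 10 fibroblast markers. Their median against the control mean was 0.37 in EV control 1 and 0.08 in p27OE 1 (log2). For the 31 genes these medians were 1.26 and 0.80. This description rests on library numbers from the titles and carries no test, since it compares single libraries.

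**Figure D1:**
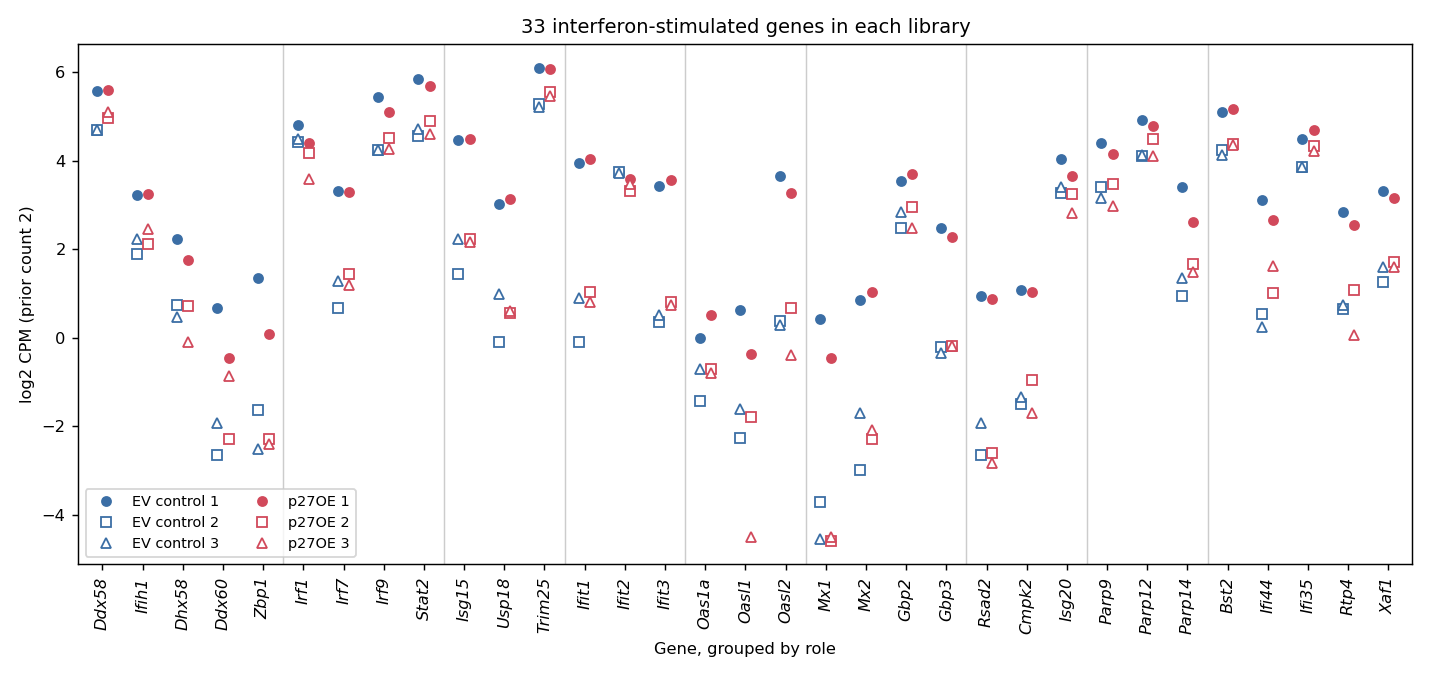
Level of each of the 33 genes (log2 CPM, prior count 2) in every library, with EV control in blue, p27OE in red, circles for the libraries numbered 1, squares for 2 and triangles for 3. Filled circles of both colours sit above the open symbols in all but a few genes. The libraries lie close together for Ifit2, and for Irf1 every p27OE symbol lies below every EV control symbol.

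The test of p27OE against EV control called none of the 31 genes at an edgeR adjusted p under 0.05, where 2.61% of all genes tested were called, and DESeq2 (16.6% of all genes called) and limma-voom (2.99%) also called 0. Only Ifit2 had an unadjusted p under 0.05 in edgeR, 1 of 31 genes against 26% of all genes. Fold changes fell on both sides of zero, with 16 genes above and 15 below, a split that moved with the setting: 22 were above and 9 below in limma-voom, 7 above and 24 below with a term for the Y-linked level, and 21 above and 8 below without both libraries numbered 1. Their median was 0.03 on the log2 scale beside 0.01 for all genes, and they ran from -1.11 (Zbp1) to 0.44 (Oas1a). The 2 groups did not overlap for Irf1 and Ifit2, both lower in p27OE, 2 of 31 genes where 16.5% of all genes lay apart in that direction. No member lay apart in the other direction, as 16.8% of all genes did (33.3% in either direction).

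Spread within a group was larger than the difference between groups for almost every gene. The range of log2 CPM inside a group had a median of 2.06 over the 31 genes in EV control and 1.57 in p27OE, against 0.32 and 0.31 for all genes. The absolute difference between group means had a median of 0.18, and 0.22 for all genes. The larger of the 2 within-group ranges exceeded the group difference for 30 of 31 genes, against 77.6% of all genes tested. Ifit2 was the exception.

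**Figure D2:**
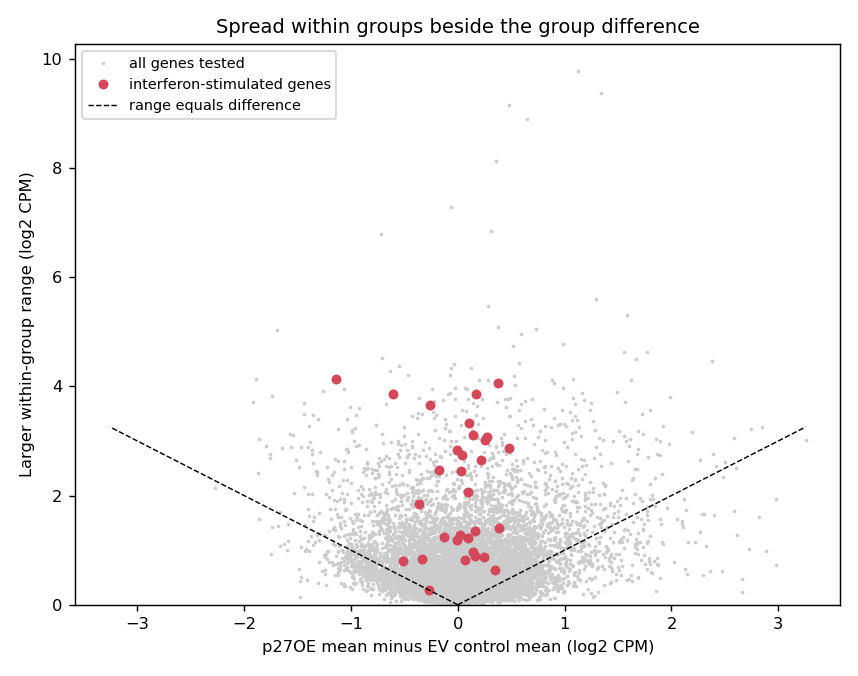
Larger within-group range against the difference of group means, both in log2 CPM, for all genes tested (grey) and the 31 tested interferon-stimulated genes (red). On the dashed lines the range equals the difference. The red points stand high and close to a difference of 0, and 30 of the 31 lie above the lines.

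Among the sensors, Ddx58 encodes RIG-I, which detects the ends of viral RNA in the cytosol (chromosome 4, 40203773 to 40239828; all gene coordinates are GENCODE M21, GRCm38). It was measured at 47.4, 25.9 and 26.0 CPM in EV control 1, 2 and 3 and at 48.8, 31.4 and 34.5 CPM in p27OE 1, 2 and 3. Both first libraries were high and nearly equal, and among the other 4 both p27OE values were the upper ones. The log2 fold change over all 6 libraries was 0.21 ± 0.29 (SE, with an edgeR adjusted p = 0.689). Ifih1, which encodes the long double-stranded RNA sensor MDA5, lay at 9.37, 3.67 and 4.63 CPM across the controls against 9.45, 4.30 and 5.50 CPM with p27. Dhx58, which encodes the regulator LGP2, lay at 4.70, 1.64 and 1.34 CPM and at 3.33, 1.60 and 0.889 CPM. In both genes only the first library of each group stood apart.

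Zbp1, a sensor of Z-form nucleic acid that can start cell death, gave 100, 17 and 6 counts in the controls and 47, 8 and 6 in p27OE. Ddx60, a helicase linked to RIG-I signalling, gave 62, 7 and 10 counts and 32, 8 and 21 counts. These are the 2 genes that were at least 2-fold lower in p27OE 1 than in EV control 1, among 31 tested, while none was 2-fold higher; of all genes, 2.54% were 2-fold lower and 3.35% higher between those libraries. Their fold changes over all libraries were -1.11 ± 1.25 and -0.44 ± 1.03 (log2, SE), so that each error was larger than its value.

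The transcription factors of the response included 3 that were high in the first libraries and 1, Irf1, that was so only a little. Irf7, the factor that amplifies interferon production (chromosome 7, 141262706 to 141266481), was at 9.95, 1.55 and 2.39 CPM across the controls against 9.76, 2.69 and 2.23 CPM with p27. The first library was 5.04-fold above the mean of the other two in EV control and 3.97-fold in p27OE. Stat2 was at 57.3, 23.7 and 26.2 CPM and at 51.5, 29.6 and 24.3 CPM, and its partner Irf9 at 43.2, 19.0 and 19.0 CPM and at 34.6, 22.9 and 19.3 CPM. Away from the first libraries the groups overlapped for Irf7 and Stat2, while both p27OE values of Irf9 lay just above both control values, and the fold changes were 0.09, -0.02 and -0.08 on the log2 scale.

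Irf1, a factor induced by interferon-gamma and by NF-kB signalling, was the exception (chromosome 11, 53770014 to 53778374). It was at 27.8, 21.3 and 22.5 CPM across EV control against 21.0, 18.1 and 12.0 CPM with p27, so every p27OE library lay below every control. The first library of each group was again its highest, but only by 0.34 and 0.51 on the log2 scale over the mean of the other two. The log2 fold change was -0.49 ± 0.22 (SE) and did not pass (edgeR adjusted p = 0.22).

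Isg15, Usp18 and Trim25 belong to the system that attaches and removes a ubiquitin-like tag. Isg15 itself (chromosome 4, 156199424 to 156200818) was at 22.1, 2.68 and 4.67 CPM across the controls against 22.6, 4.67 and 4.47 CPM with p27. The first libraries were nearly equal and stood 6.00-fold and 4.94-fold above the means of the others. Usp18, the protease that removes ISG15 and damps the receptor, was at 8.05, 0.893 and 1.93 CPM and at 8.78, 1.43 and 1.49 CPM. Trim25, a ubiquitin ligase that acts on RIG-I, was abundant throughout, at 68.9, 39.0 and 37.1 CPM and at 67.6, 46.8 and 44.0 CPM, with first libraries 1.81-fold and 1.49-fold above the others. Their fold changes were 0.12 ± 0.96, 0.12 ± 1.02 and 0.13 ± 0.28 on the log2 scale (SE), and none passed.

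The IFIT genes, whose proteins bind the ends of foreign RNA and block its translation, lie side by side on chromosome 19 and went separate ways. Ifit1 (34640871 to 34650009) was at 15.5, 0.893 and 1.82 CPM across EV control against 16.3, 2.01 and 1.71 CPM with p27. Ifit3 (34583531 to 34588731) was at 10.8, 1.24 and 1.38 CPM and at 11.8, 1.72 and 1.63 CPM. For both, the first library was far above the rest in each group, 11.4-fold and 8.79-fold for Ifit1 and 8.22-fold and 7.04-fold for Ifit3. Ifit2 (34550694 to 34576419) was at 13.3, 13.4 and 13.1 CPM across the controls against 12.0, 9.98 and 11.1 CPM with p27. Its controls were nearly identical, and all 3 p27OE libraries lay a little below them.

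The means of Ifit2 were 13.3 ± 0.149 CPM across EV control against 11.0 ± 1.02 CPM with p27 (SD, n = 3 libraries each). The log2 fold change was -0.27 ± 0.10 (SE, with an edgeR adjusted p = 0.17), which had the smallest p of the 31 genes and still did not pass. For Ifit1 the fold change was 0.15 ± 1.28 and for Ifit3 0.19 ± 1.12. Ifit1 and Ifit3 have close relatives in the same cluster, and the counting rule for shared reads was not given in the sources used here, so their counts are uncertain.

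Oligoadenylate synthetases make the messenger that turns on RNase L, and Oasl1 and Oasl2 are OAS-like relatives. Oasl2 (chromosome 5, 114896936 to 114912234) was at 12.6, 1.26 and 1.18 CPM across the controls against 9.56, 1.56 and 0.721 CPM with p27, 10.3-fold and 8.39-fold above the other libraries in the first of each group. Oasl1, which restrains Irf7 translation in the mouse, gave 60, 10 and 13 counts and 34, 12 and 0 counts. Oas1a gave 38, 20 and 26 counts and 64, 28 and 22 counts. Oas1a was the one gene of the 3 whose p27OE mean was the higher, and its fold change of 0.44 ± 0.56 did not pass. Oas1a also has closely related neighbours that may share its reads.

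The MX and guanylate-binding proteins are large GTPases that act on viral particles and on the membranes around pathogens. Mx2, annotated as a polymorphic pseudogene, gave 71, 5 and 12 counts in EV control and 93, 8 and 8 counts in p27OE. Mx1, which is truncated in C57BL/6 and most other laboratory strains, gave 52, 2 and 0 counts and 32, 0 and 0 counts, too few to be tested. Counts of 0 in p27OE 2 and 3 allow up to 0.0615 and 0.0721 CPM (3 counts, counting error only). Gbp3 was at 5.55, 0.827 and 0.746 CPM and at 4.78, 0.840 and 0.841 CPM, while Gbp2 was higher away from the first libraries, at 11.6, 5.54 and 7.09 CPM and at 13.0, 7.69 and 5.53 CPM. In all 4 the first library of each group was the highest, and the fold changes of the 3 tested ones lay between -0.13 and 0.19.

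Rsad2 encodes viperin, which makes a chain-terminating nucleotide with the help of the neighbouring Cmpk2 product, a nucleotide kinase. Rsad2 gave 75, 7 and 10 counts in the controls and 83, 6 and 4 counts in p27OE and was not tested. Cmpk2 gave 83, 19 and 16 counts and 93, 23 and 11 counts. The pair therefore showed the same order, with the first libraries apart and the other 4 near the lower limit of the data. Isg20, an RNA exonuclease, was at 16.4, 9.62 and 10.6 CPM and at 12.6, 9.47 and 7.02 CPM, a log2 fold change of -0.33 ± 0.28 (SE, with an edgeR adjusted p = 0.51).

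Parp9, Parp12 and Parp14 are ADP-ribosyltransferases of the antiviral response. Parp14 was at 10.5, 1.88 and 2.50 CPM across EV control against 6.14, 3.12 and 2.76 CPM with p27. Its first library stood 4.81-fold above the others in the controls and 2.09-fold in p27OE, the latter both from a lower first library and from higher others. Parp9 was at 21.1, 10.5 and 8.93 CPM and at 17.7, 11.0 and 7.81 CPM, and Parp12 at 30.5, 17.2 and 17.5 CPM and at 27.5, 22.4 and 17.2 CPM. None of the 3 passed, with fold changes of -0.30, -0.15 and 0.04. Parp9 overlaps exons of Dtx3l on the other strand, and no strand setting was given, so reads of the overlap cannot be assigned. The same holds for exons shared with annotated neighbours by Dhx58, Irf1, Irf7, Irf9, Usp18, Oasl1, Gbp2, Parp14, Ifi35 and Rtp4.

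Of the remaining effectors, Bst2 encodes tetherin, which holds budding virus at the cell surface. It was at 34.2, 19.0 and 17.5 CPM across EV control against 36.2, 20.7 and 20.3 CPM with p27. Ifi35 was at 22.6, 14.6 and 14.5 CPM and at 26.1, 20.1 and 18.7 CPM. For Bst2 and Ifi35, p27OE 1 was above EV control 1, and p27OE 2 and 3 were both above EV control 2 and 3. Ifi44 was at 8.60, 1.41 and 1.14 CPM and at 6.30, 1.99 and 3.05 CPM. Xaf1, a partner of the apoptosis inhibitor XIAP, was at 10.00, 2.36 and 2.98 CPM and at 8.94, 3.26 and 2.98 CPM. Rtp4 was at 7.17, 1.54 and 1.62 CPM and at 5.80, 2.09 and 1.01 CPM. In all 5 genes both first libraries were the highest, and the fold changes over all libraries were 0.13, 0.33, 0.03, -0.01 and -0.21, with no adjusted p below 0.39.

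Single libraries were set side by side to size the spread. EV control 1 was at least 2-fold above the mean of EV control 2 and 3 for 22 of the 31 genes (6.74% of all genes), and p27OE 1 was 2-fold above the mean of p27OE 2 and 3 for 18 of 31 (4.04% of all genes). Both held for 18 genes, against 2.87% of all genes. The median differences were 1.90 and 1.26 on the log2 scale, and 0.01 and 0.01 for all genes. Across the 31 genes the 2 differences ran in parallel, with a Pearson r of 0.89 and a Spearman rho of 0.91, given as a description over genes that come from the same 6 libraries. Over all 13990 genes the Pearson r was 0.67. Parp14, Ifi44 and Ddx60 fell furthest from equal differences, each with the smaller value in p27OE.

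**Figure D3:**
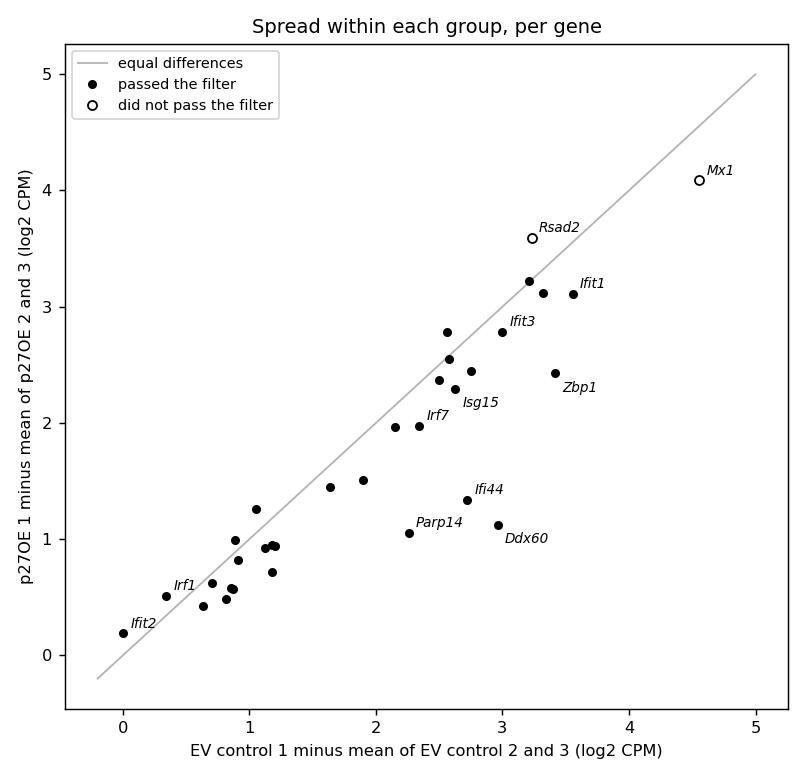
For each gene, the first control library against the mean of the other two controls (horizontal) and the first p27OE library against the mean of the other two p27OE libraries (vertical), in log2 CPM. Points run along the line of equal differences, most of them below it, from Ifit2 near 0 to Ifit1 and Mx1 above 3. Open points mark the 2 genes that were too low to test.

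The first libraries differed less from each other than from the rest of their groups. In EV control 2 and EV control 3, 23 and 21 of the 31 genes were at least 2-fold lower than in EV control 1 (7.06% and 6.83% of all genes). In p27OE 2 and p27OE 3, 18 and 20 were 2-fold lower than in p27OE 1 (2.37% and 6.8%). Between p27OE 1 and EV control 1 the median difference of the 31 genes was -0.15 on the log2 scale. Between the other libraries, p27OE 2 differed from EV control 2 by a median of 0.38 and p27OE 3 from EV control 3 by -0.09. EV control 2 and 3 were alike, with 2 of 31 genes at least 2-fold higher in EV control 3 (0.944% of all genes) and none 2-fold lower (1.03%). In p27OE 3 against p27OE 2, 1 gene was 2-fold higher (1.45% of all genes) and 3 were lower (3.35%).

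Among the tested genes, the step in the first library was larger for those of which the other libraries held less. Levels can be compared between genes per kilobase of merged exons. On that scale the means of EV control 2 and 3 ran from 0.0193 CPM per kb for Ddx60 to 20.2 for Bst2 among the tested genes. Isg15 was at 4.86 CPM per kb in those libraries and at 29.2 in EV control 1. The 10 genes at 10 CPM or more in EV control 2 and 3 had steps of 1.14-fold to 1.91-fold in p27OE 1, while the 21 below that level had steps of 1.87-fold to 11.3-fold. The level per kilobase in EV control 2 and 3 and the log2 step in p27OE 1 had a Spearman rho of -0.70 (31 genes). This is a description over genes in which low counts also widen the spread of the step. The filter shapes this relation too, since a gene low in the other libraries passed more easily with high first libraries. Zbp1 and Mx2 did not pass once both libraries numbered 1 were left out. Genes with an ISRE core in the promoter window had a median step of 1.91 in EV control 1 (12 genes, log2, from 0.87 to 3.55), and those with an entry and no core had a median of 1.18 (13 genes, from 0.00 to 3.32). The 8 genes without an entry had the highest median, 2.42. Rsad2 (core) and Mx1 (no entry) are counted here although they were not tested, and the sets were not matched for level. The ranges overlapped, and Oasl2, with no core in its window, was among the largest.

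Transcripts that mark the sex chromosomes also differed inside the groups. The 4 Y-linked genes Uty, Kdm5d, Eif2s3y and Ddx3y together gave 0.125, 126 and 124 CPM across EV control 1 to 3, against 1.95, 57.1 and 137 CPM across p27OE 1 to 3. Xist, the transcript of X inactivation, was at 407, 5.67 and 0.680 CPM across EV control 1 to 3. Across p27OE 1 to 3 it was at 330, 164 and 0.456 CPM, so within each group Xist was highest where the Y-linked sum was lowest. The interferon-stimulated genes were high in both libraries with a Y-linked sum under 2 CPM. In p27OE 2, with an intermediate sum, their median lay at -0.33 against the control mean, near p27OE 3 at -0.54 and below p27OE 1 at 0.80. EV control 1 was the smallest library of the 6, at 39183624 counts, and p27OE 1, at 44651036 counts, lay between p27OE 3 and p27OE 2. The parts of the Y-linked level, of Xist and of library size in the step were not tested.

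Macrophage markers were looked at because macrophages can grow in embryonic cultures and express many of these genes. Of 15 listed markers 14 were in the table, 12 of which were tested. Their summed CPM was 98.95 for EV control 1 but 20.4 and 15.9 for the other controls, and the p27OE libraries had 18.5, 27.8 and 34.7 in the order of their numbers. The sum was the highest of the 6 libraries in EV control 1 and the lowest of its group in p27OE 1. The part of macrophages in the step was not tested. For bulk libraries, fewer cells of a type and less RNA per cell cannot be told apart.

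**Figure D4:**
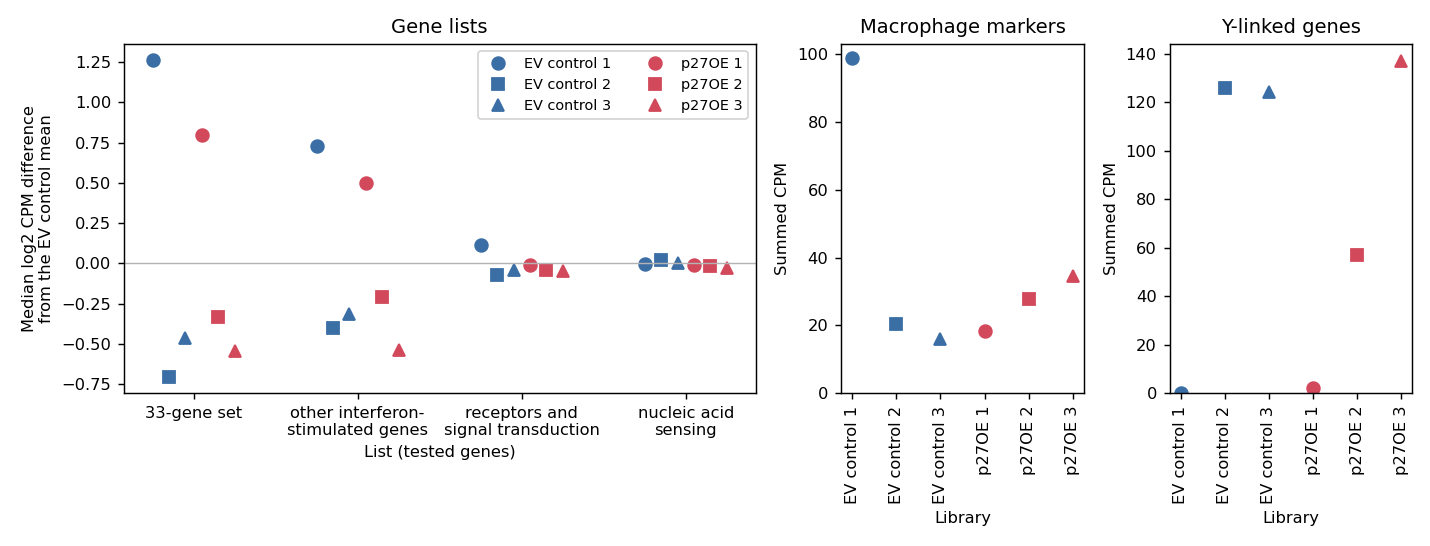
Left, the median log2 CPM difference from the EV control mean for the 31 tested interferon-stimulated genes, 44 others of the same kind, 16 receptor and signalling genes and 20 nucleic acid sensing genes, one symbol per library. Middle and right, summed CPM of macrophage markers and of 4 Y-linked genes. The first 2 lists are high in both libraries numbered 1, the other lists are near 0 in all 6, and macrophage markers are high in EV control 1 alone.

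The comparison was repeated with these library differences in the design. When both libraries numbered 1 were left out, 29 of the genes could be tested, and 2 passed, both higher in p27OE, against 7.81% of all genes (none was lower, against 8.9%). They were Ifi35, at 0.40 ± 0.09 (log2, SE; edgeR adjusted p = 0.0473), and Ddx58, at 0.33 ± 0.08 (edgeR adjusted p = 0.0496). With a term for the Y-linked level in the model, 1 of 31 genes passed as higher, against 18% of all genes, and 3 as lower, against 16%. The higher one was Ifi35 at 0.27 ± 0.09 (edgeR adjusted p = 0.0486). The lower ones were Irf1 at -0.59 ± 0.10 (edgeR adjusted p = 0.00585), Isg20 at -0.44 ± 0.09 (edgeR adjusted p = 0.00978) and Dhx58 at -0.62 ± 0.19 (edgeR adjusted p = 0.0382). The shares of all genes called in either direction were 16.7% and 34% in these 2 settings.

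**Figure D5:**
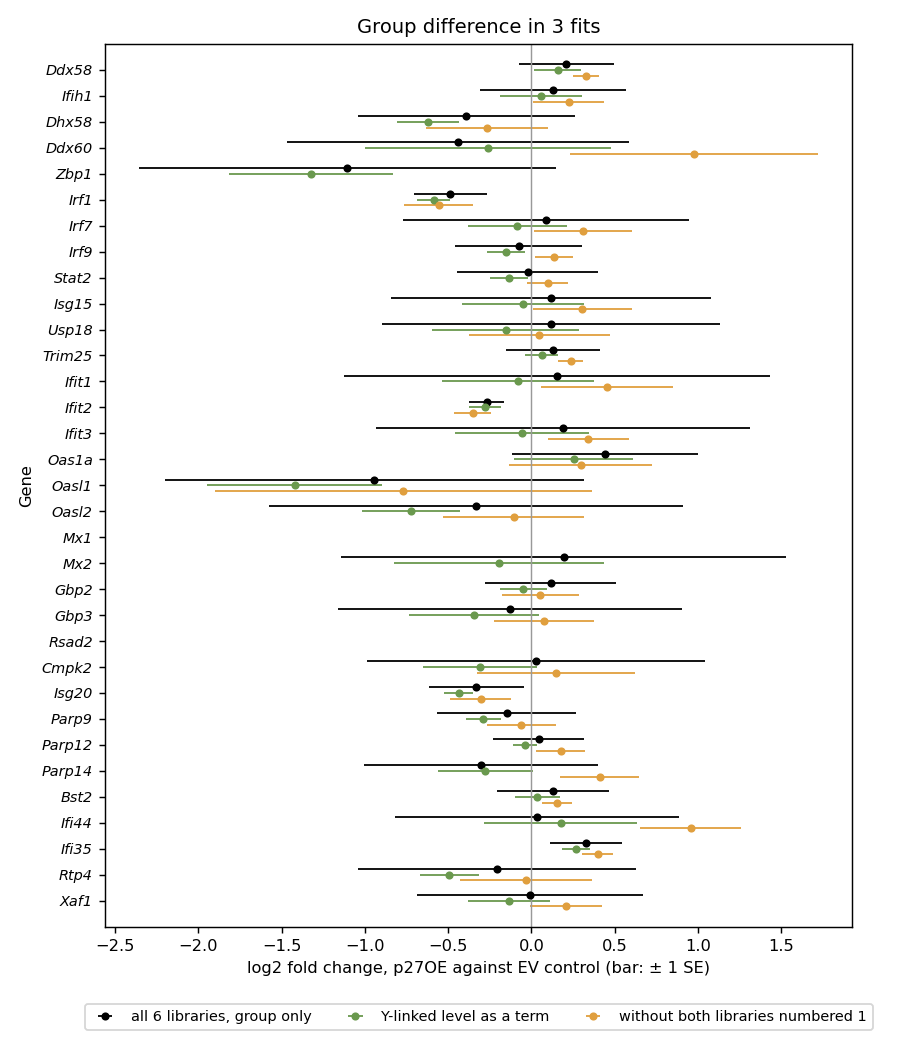
Log2 fold change of p27OE against EV control with 1 SE for each gene, in the fit over all 6 libraries (black), with a term for the Y-linked level (green) and without both libraries numbered 1 (orange). Black bars are wide and cross 0 for most genes, the other bars are shorter, and Mx1 and Rsad2 have no value because they were not tested. Zbp1 and Mx2 have no orange value.

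Leaving out 1 library at a time called none of the genes in any of the 6 fits, but it moved their median. Without EV control 1 the median log2 fold change was 0.87, with 29 of 32 tested genes above 0, and 12.9% of all genes were called. Without p27OE 1 it was -0.75, with 31 of 32 below 0. In each case the group that still held its library numbered 1 was the higher one. Other scalings and filters also called none of the genes, with 2.34% (RLE), 2.34% (upper quartile), 2.23% (total counts), 1.74% (no filter) and 4.04% (at least 1 CPM in 3 libraries) of all genes called. With the replicate number as a block, Irf1 alone was called, against 17.2% of all genes. The 6 fits with 1 library absent differed in what they could call: without EV control 2, EV control 3, p27OE 1, p27OE 2 and p27OE 3 only 0.00701%, 0.00701%, 0.00706%, 0.00705% and 0.014% of all genes passed, so 0 members says little there. Without EV control 1, 3 of 32 members had an unadjusted p under 0.05 in edgeR, where 12.9% of all genes passed even after adjustment.

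Upstream of the interferon-stimulated genes, the interferon genes themselves gave almost no counts. Of 11 interferon genes listed, 9, among them Ifnb1, had no count in any library, which allows up to 0.0496 to 0.0750 CPM per library. Ifnz, the only one tested, was at 0.344 ± 0.0853 CPM (EV control) beside 0.346 ± 0.18 CPM (p27OE; SD, n = 3). The receptor and signalling genes were steady in comparison, and 0 of 16 passed in edgeR, where 2.61% of all genes did. At an unadjusted p under 0.05 there were 2 of 16, against 26% of all genes. Ifnar1 was at 103, 90.1 and 89.7 CPM across the controls against 94.6, 89.5 and 94.1 CPM with p27, and Ifnar2 at 38.4, 37.5 and 35.7 CPM and at 35.8, 36.0 and 34.6 CPM. The first control library was the highest for both chains, by a far smaller step than in the target genes.

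The log2 fold changes of Ifnar1, Ifnar2, Ifngr1 (the interferon-gamma receptor) and Jak1 were -0.02, -0.07, -0.08 and -0.07. Tyk2 was at 0.23 ± 0.10 (SE). The 2 first libraries were the highest for 5 of the 16 genes (31.25%), among them Ifnar1, against 16.5% of all genes. Groups lay apart with p27OE lower for 2 of the 16 genes and with p27OE higher for 1, against 16.5% and 16.8% of all genes. Socs3, a feedback inhibitor of JAK signalling, was at 67.5, 57.2 and 50.1 CPM across EV control against 37.6, 36.6 and 17.9 CPM with p27, with every p27OE library below every control. Its fold change of -0.92 ± 0.29 did not pass (edgeR adjusted p = 0.109), nor did that of the phosphatase gene Ptpn2 (-0.34 ± 0.14, edgeR adjusted p = 0.182).

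In the list of nucleic acid sensing and induction, 1 of 20 tested genes fell and none rose, where 0.843% of all genes fell and 1.77% rose. The gene that fell was Tmem173, which encodes STING, the adaptor that carries the signal of cytosolic DNA to interferon genes. It was at 44.6, 47.1 and 45.7 CPM across EV control against 26.4, 31.3 and 26.3 CPM with p27. The groups were well apart and each was tight, with means of 45.8 ± 1.26 and 28.0 ± 2.82 CPM (SD, n = 3). The log2 fold change was -0.71 ± 0.09 (SE, with an edgeR adjusted p = 0.0303), and -0.71 also without both libraries numbered 1 (edgeR adjusted p = 0.025). The call was lost without EV control 2, EV control 3, p27OE 1, p27OE 2 or p27OE 3 in turn, with edgeR adjusted p from 0.0707 to 0.189 and a fold change between -0.67 and -0.81, and it held without EV control 1.

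Other genes of the sensing list did not pass. At an unadjusted p under 0.05 in edgeR there were 8 of 20, Tmem173 among them, against 26% of all genes. Mb21d1, which encodes the DNA sensor cGAS that acts before STING, was at 7.10, 8.93 and 7.57 CPM across EV control against 6.34, 5.76 and 6.08 CPM with p27 (-0.38 ± 0.14, edgeR adjusted p = 0.148). Mavs, the adaptor of RIG-I and MDA5, was at 31.8, 33.7 and 35.0 CPM and at 37.0, 40.5 and 44.8 CPM (0.28 ± 0.09, edgeR adjusted p = 0.118). Both genes had groups that did not overlap, in opposite directions. Of the 20 tested genes of this list, 5 lay apart with p27OE lower and 2 with p27OE higher, against 16.5% and 16.8% of all genes. Irf3, the factor that first turns on Ifnb1, was at -0.05 ± 0.09.

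A further 53 interferon-stimulated genes, listed apart from the 33, were found in the table, and 44 were tested. None passed in edgeR (2.61% of all genes did), 0 had an unadjusted p under 0.05 (26% of all genes did), and their median log2 fold change was -0.01. The 2 first libraries were the highest for 35 of the 44, against the 16.5% of all genes given above. The lowest p of this list belonged to Ifitm3, which blocks the entry of enveloped viruses, at 278, 228 and 241 CPM across EV control against 228, 191 and 141 CPM with p27 (-0.42 ± 0.18, edgeR adjusted p = 0.212). Pnpt1 and Ifi27l2a followed, at -0.15 ± 0.07 and -1.52 ± 0.79, without passing.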

How the data were processed

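The authors deposited whole-number read counts per gene symbol for 6 libraries, not normalised. The submitters' processing notes name TopHat2 2.0.14, Bowtie2 2.2.6, featureCounts 1.4.6, Subread and mm10, while the annotation, strand setting and filters are not given in the sources used here. From the counts, TMM factors, CPM and log2 CPM (prior count 2) were computed. Genes were filtered with filterByExpr (13990 kept) and tested with edgeR 4.0.16 in R 4.3.3 (robust quasi-likelihood, two-sided, group only), with Benjamini-Hochberg adjustment over all of them and a threshold of 0.05. DESeq2 1.42.0 and limma-voom (limma 3.58.1) were alternatives. The fit was tested on simulated data. The members, lists and alternatives were chosen with earlier results of these data known. Named were all 33 members, Cdkn1b, fixed pathway genes, and of each pathway list the called genes or the 3 with the smallest p. A fixed pathway gene is not reported here. No library repeated another of its group within sampling noise (chi-square per gene from 6.49 to 188). Library numbers were not taken as pairs.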

Additional observations from a re-analysis of the deposited data

How the results depend on the processing

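Under RLE, upper-quartile or total-count factors, without a filter, with at least 1 CPM in 3 libraries, with DESeq2 or limma-voom, and with any 1 library absent, 0 interferon-stimulated genes were called, although 5 of the 6 fits with 1 library absent called at most 2 genes of any kind. The number was 4 when the Y-linked level entered the model and 2 without both libraries numbered 1. It was 1 with the replicate number as a block (Irf1, lower, edgeR adjusted p = 0.0493, where 8% of all genes were lower). Same-numbered libraries had deviations from their group means that correlated across genes at r = 0.67, 0.05 and 0.50, and no pairing was assumed. The median log2 fold change ran from -0.75 to 0.87 with single libraries absent. Of the members, 27 changed sign in at least 1 alternative, and no call was reversed. Low counts limit Mx1 and Rsad2, which were not tested, and Zbp1 and Mx2, which could not be tested without both libraries numbered 1.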
